A study of Mus musculus with 4 samples.

Results

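Open chromatin around 8 activity-induced genes was described across FAIRE-seq summit lists from the dentate gyrus: Fos, Fosb, Junb, Egr1, Npas4, Nr4a1, Arc and Bdnf. FAIRE-seq sequences the DNA that stays in the aqueous phase when fixed, sonicated tissue is extracted with phenol and chloroform, which is DNA carrying few nucleosomes. The members were found by position alone. Every summit inside 1 of 8 windows of mm9 was taken, each window holding 1 gene with about 50 kb on each side, and summits up to 250 bp apart were joined to 1 region. This gave 81 regions of 82899 in the whole series (0.0977%), built from 244 of 190846 summits.

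The 4 libraries came from mice on the C57BL6 strain, around 9 weeks old, 2 titled WT and 2 titled Mbd1 KO. Mbd1 encodes a reader of methylated CpG sites. The knockout allele, the number of animals behind a library and whether libraries came from separate animals are not stated in the labels, so spread between libraries may be technical. The genotype field goes against the title for 2 libraries: it reads Mbd1 KO for the library titled WT 1 and WT for the library titled Mbd1 KO 2. Libraries are therefore named by title, and the comparisons of means over all 8 windows are also given with the groups of that field, which coincide with the replicate numbers. The targeted gene and the tissue's marker genes were not analysed here. The lists held 38142 (WT 1), 46651 (WT 2), 56382 (Mbd1 KO 1) and 49671 (Mbd1 KO 2) summits, and read depth is unknown.

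Immediate early genes are switched on within minutes of neuronal firing, from transcription factors that are already present and are modified by calcium signals. Such factors include CREB, which binds the cAMP response element, and serum response factor, which binds the CArG box. Some of the genes encode transcription factors that act on a later wave of genes, while others, such as Arc, act directly at the synapse. In the dentate gyrus only a sparse set of granule neurons expresses them at any moment, and a summit in bulk tissue does not say which cells carry it. The labels name no stimulation of the mice.

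Sites called in all libraries were common in these windows. Of the 81 regions, 43 (53.1%) were called in all 4 libraries, beside 32.1% of all regions of the series. A further 10 were called in 3 libraries, 10 in 2 and 18 (22.2%) in 1, the last beside 44.1% of all regions. The windows cover 903 kb and held 47.6 regions of all 4 libraries per Mb, beside 10.3 per Mb over the 2580 Mb between the first and last regions of all chromosomes, a ratio of 4.62. Regions are not replicates, so these shares have no test. The windows were chosen around genes and the baseline was not, and windows around other genes were not compared.

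Regions called in all 4 libraries are given below with the deposited summit score, which is the authors' value and is taken as −log10 of a p or q value, and with a rank percentile. The percentile ranks a region's score in 1 library among the 26592 regions called in all 4 libraries, with 100 as the highest, so that each library ranks the same number of regions. The lowest of a region's 4 percentiles had a median of 47.5 over the 43 shared regions of the windows and of 31.9 over all shared regions. In 9 of the 43 (20.9%) all 4 percentiles were at least 80, against 13.5% of all shared regions.

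**Figure D1:**
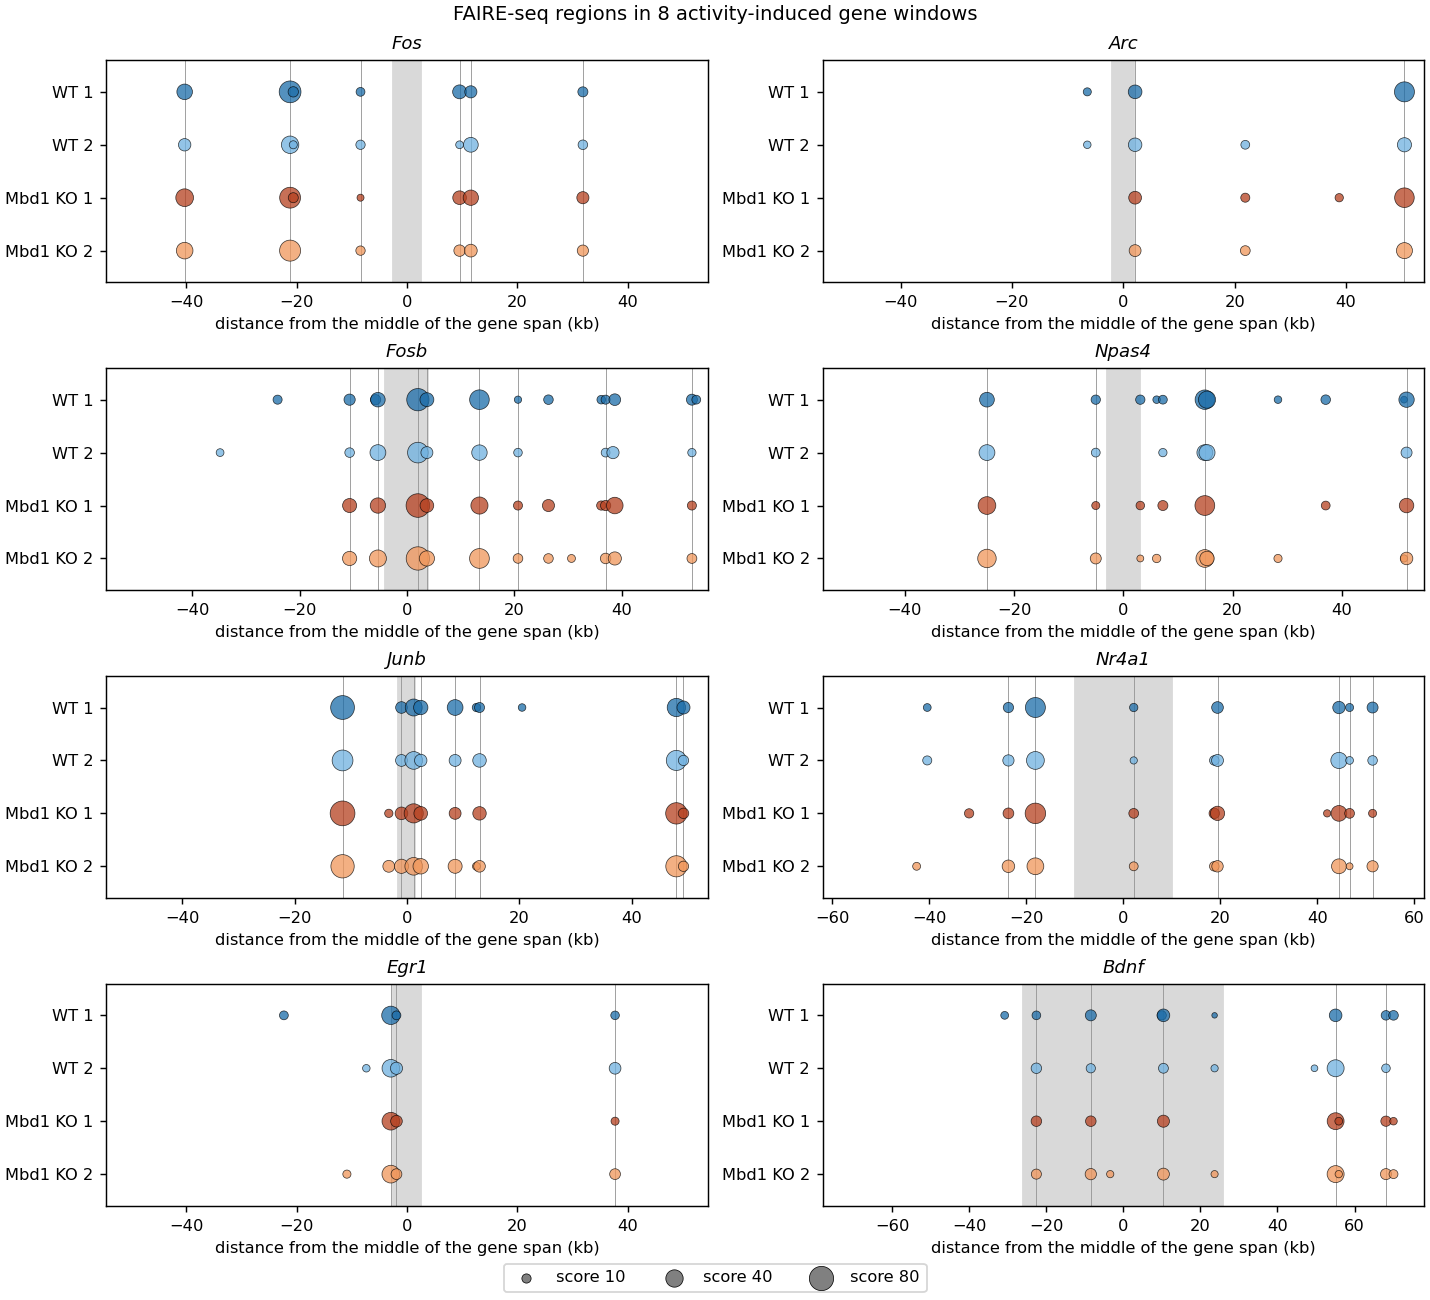
Positions of FAIRE-seq regions in the 8 windows, with 1 row per library; the x axis is the distance in kb from the middle of the gene span (grey band), the area of a point grows with the summit score, and thin lines mark the 43 regions called in all 4 libraries. No point is centred in the Fos, Arc and Npas4 bands, though at Arc and Npas4 points lie at the upper edge of the band. Fosb, Junb and Egr1 have large points in or at the band in every library.

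The loci differed in where their shared regions lay. Junb, Fosb, Egr1, Arc, Nr4a1 and Bdnf had regions called in all 4 libraries in the gene span or within 2 kb of it, 13 in all. Fos and Npas4 had none, though the nearest at Npas4 was 2020 bp away, just past this cut, and at Fos 5890 bp. The gene span is the window less 50 kb on each side, and its ends are rounded to the kb by the rule. No mm9 annotation was used, so start sites were not placed. A start site can lie well inside a span, above all in a gene with several promoters such as Bdnf. Inside the spans 9 of 12 regions (75%) were called in all 4 libraries, beside 23 of 45 (51.1%) above them and 11 of 24 (45.8%) below them on the chromosome.

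Promoter sequences of 6 of the 8 genes were matched by symbol in the RefSeq table of GRCm38.p6; Arc and Egr1 have no entry. The bases before the start site are printed for 5 genes, chosen by the summits at the 5′ end of the gene span. There Fosb, Junb and Npas4 had a summit in at least 3 libraries, and Fos and Nr4a1 did not. Start sites were not placed in mm9, so this choice cannot say whether a printed promoter has a summit. For Nr4a1, a region called in all 4 libraries lay inside the span (15:101097138-101097164), and its distance from the printed promoter was not tested. Each printed sequence is written 5′ to 3′ on the gene's own strand, 250 bases long, in coordinates of GRCm38.p6, which are not those of the summits. Capitals mark matches on either strand to TGACG, a short form of the cAMP response element TGACGTCA, to the EGR site GCGNGGGCG and to the TATA box TATAAA.
Fos (GRCm38.p6 chr12:85473640-85473889, plus strand): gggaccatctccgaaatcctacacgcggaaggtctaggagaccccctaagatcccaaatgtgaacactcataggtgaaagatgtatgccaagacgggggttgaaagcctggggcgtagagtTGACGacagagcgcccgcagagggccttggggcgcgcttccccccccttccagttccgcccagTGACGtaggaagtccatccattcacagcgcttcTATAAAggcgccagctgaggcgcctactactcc
Fosb (GRCm38.p6 chr7:19310046-19310295, minus strand): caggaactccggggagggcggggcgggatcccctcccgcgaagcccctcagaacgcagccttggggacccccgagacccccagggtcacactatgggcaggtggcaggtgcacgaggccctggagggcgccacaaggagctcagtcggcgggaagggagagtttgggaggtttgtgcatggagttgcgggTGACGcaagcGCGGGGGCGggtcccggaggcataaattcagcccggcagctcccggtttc
Junb (GRCm38.p6 chr8:84978749-84978998, minus strand): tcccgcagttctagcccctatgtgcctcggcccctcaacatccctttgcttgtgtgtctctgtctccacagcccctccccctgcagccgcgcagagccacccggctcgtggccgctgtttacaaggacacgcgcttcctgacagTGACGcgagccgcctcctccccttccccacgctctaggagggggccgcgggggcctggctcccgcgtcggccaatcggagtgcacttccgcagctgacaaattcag
Npas4 (GRCm38.p6 chr19:4989972-4990221, minus strand): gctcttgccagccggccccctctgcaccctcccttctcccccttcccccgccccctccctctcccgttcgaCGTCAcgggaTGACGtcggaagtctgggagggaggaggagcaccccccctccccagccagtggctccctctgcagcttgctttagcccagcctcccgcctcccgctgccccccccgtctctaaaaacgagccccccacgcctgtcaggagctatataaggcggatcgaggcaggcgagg
Nr4a1 (GRCm38.p6 chr15:101266596-101266845, plus strand): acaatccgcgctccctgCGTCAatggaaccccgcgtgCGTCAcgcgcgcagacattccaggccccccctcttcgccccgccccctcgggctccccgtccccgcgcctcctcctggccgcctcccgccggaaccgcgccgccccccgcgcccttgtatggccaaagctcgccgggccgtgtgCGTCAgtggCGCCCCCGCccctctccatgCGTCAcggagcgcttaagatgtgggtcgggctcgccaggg

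All 6 genes in the table held TGACG on at least 1 strand of at least 1 promoter, beside 17.8% of the 32851 promoters, or 19.8% of the 27025 genes. Fos had it 66 to 62 and 129 to 125 bases before the start, Fosb 60 to 56 bases and Junb 106 to 102 bases before it. Nr4a1 had 4 copies, all on the opposite strand, and Npas4 had 2 copies on opposite strands within 15 bases, pointing away from each other, the first from 179 bases before the start. The full element TGACGTCA, which contains TGACG on both strands, was in none of the 6 and in 1.55% of all promoters. EGR sites were in Fosb and Nr4a1 (4.70% of promoters), the TATA box in Fos (12.4%), the AP-1 site TGANTCA in 1 of 7 Bdnf promoters (6.75%) and the CArG box in none (1.47%). Among 32 other activity-induced genes listed for context, 24 had a promoter in the table, and 16 of these held TGACG, 5 TGACGTCA and 3 the CArG box. These are matches of letters in the 250 bases before a start site, not sites of binding, and sequence further upstream was not searched.

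The ratio of observed to expected CpG, the sequence that Mbd1 reads when it is methylated, was above the median in the 5 printed promoters. It was 1.05 for Nr4a1, 0.762 for Junb, 0.705 for Fos, 0.660 for Fosb and 0.591 for Npas4, beside a median of 0.374 (quartiles 0.167 and 0.723) over all promoters. Fos, Fosb and Npas4 lay within these quartiles. The 7 Bdnf promoters ran from 0.104 to 0.706. Methylation itself was not measured.

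Fos encodes a partner of Jun proteins in the AP-1 transcription factor and is the most widely used marker of recently active neurons. No library had a summit in the Fos span (12:86815000-86820000), and the nearest ones lay 5890 bp below its 5′ end and 7038 bp above its 3′ end. The lists hold only summits above the authors' threshold, so this is the lack of a call, not a measure of closed chromatin. The window nonetheless held 6 regions of all 4 libraries among 7, and only 1.08% of 24552 stretches of the same length held as many.

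The strongest region of the Fos window lay 18610 bp below the gene span (12:86796252-86796390), with scores of 64.4 in WT 1, 40.6 in WT 2, 58.8 in Mbd1 KO 1 and 59.8 in Mbd1 KO 2. All 4 percentiles were at least 90.1, and WT 2 was the lowest. A region 493 bp further on (12:86796883-86796919) was called in 3 libraries and not in Mbd1 KO 2. Fos is known for enhancers on both sides of the gene that respond to neuronal activity. Shared regions also lay on both sides here, as they did at Fosb, Junb, Egr1, Npas4 and Nr4a1. They were not compared with the positions of known enhancers. The pair above Fos was uneven between libraries. At 12:86827038-86827068 the scores were 25.1 and 6.67 in WT 1 and WT 2 and 24.2 and 16.5 in Mbd1 KO 1 and Mbd1 KO 2. At 12:86829074-86829108 they were 18.8 and 28.8 in the WT libraries and 31.0 and 20.9 in the Mbd1 KO libraries. The titled groups overlapped at both regions, and the WT libraries alone spanned rank percentiles from 8.58 to 73.6 at the first.

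Fosb encodes a second Fos-family protein, a splice form of which builds up in the hippocampus with repeated activity. Its window held the most regions of all, 17, of which 8 were called in all 4 libraries and 6 in a single library. The strongest lay inside the gene span (7:19894038-19894053), with scores of 67.4 in WT 1, 57.6 in WT 2, 75.9 in Mbd1 KO 1 and 74.2 in Mbd1 KO 2. Both Mbd1 KO values were above both WT values, but the rank percentiles differed by little, from 95.5 to 96.7. A second region lay 262 bp inside the 5′ end of the span (7:19895713-19895738). Its scores were 25.1, 18.2, 24.2 and 30.6 in the order WT 1, WT 2, Mbd1 KO 1 and Mbd1 KO 2, and the groups overlapped. Another lay 1375 bp past the 3′ end (7:19886575-19886625), with scores from 27.7 to 38.5.

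In the Fosb window a summit could fall to either side of the joining distance. WT 2 had a summit at 7:19930392 with a score of 18.9 that no other library shared, and the other 3 libraries had 1 at 7:19930721-19930740, 329 bp away, with scores of 17.3, 36.4 and 22.5. WT 1 had a summit of its own at 7:19886165, 410 bp from the region at the 3′ end of Fosb. Over the 8 windows, 12 pairs of neighbouring regions lay within 1000 bp of each other. The RefSeq table lists 7 other protein-coding genes within 50 kb of Fosb (Cd3eap, Ercc1, Gm38499, Ppm1n, Ppp1r13l, Rtn2 and Vasp), so regions outside the gene span cannot be assigned to Fosb.

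Junb encodes a Jun-family partner of Fos proteins in AP-1. Its window had 11 regions, 8 of them in all 4 libraries, and 3 of the 8 were at the gene. The region 269 bp inside the 5′ end of the span (8:87502699-87502731) scored 38.3 in WT 1, 41.8 in WT 2, 49.4 in Mbd1 KO 1 and 41.7 in Mbd1 KO 2. A region near the 3′ end (8:87500518-87500548) scored 17.1 and 17.7 in the WT libraries and 20.5 and 26.2 in the Mbd1 KO libraries. The region 953 bp before the 5′ end (8:87503953-87503969) scored 27.0, 19.7, 24.2 and 31.4 in the same order. The groups overlapped at the first and last of these and not at the second.

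The strongest region of the Junb window was 9942 bp below the gene span (8:87490037-87490058), with scores of 77.2, 58.6, 83.7 and 74.2 in the order WT 1, WT 2, Mbd1 KO 1 and Mbd1 KO 2. Its percentiles, from 96.2 to 97.2, were the highest of any member in every library, in Mbd1 KO 2 tied with the Fosb region above. The table lists 8 other protein-coding genes within 50 kb of Junb (Best2, Get3, Hook2, Mast1, Prdx2, Rnaseh2a, Rtbdn and Trir). A region 1711 bp below the span (8:87498268-87498289) was called in both Mbd1 KO libraries, with scores of 7.83 and 17.9, and in neither WT library.

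Egr1 encodes a zinc finger transcription factor needed for lasting synaptic potentiation. Its window held only 6 regions, and 2 of its 3 shared regions flanked the lower end of the gene span. The stronger was 397 bp below that end (18:35019581-35019603) and varied least by score, as a ratio of highest to lowest, of the 13 regions at the genes; by percentile the Fosb region in the span varied less. It scored 45.0 in WT 1, 41.6 in WT 2, 41.9 in Mbd1 KO 1 and 42.1 in Mbd1 KO 2. By score the titled groups overlapped. As rank percentiles the Mbd1 KO libraries (86.3 and 86.7) lay below the WT libraries (89.7 and 90.6), a small gap.

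The second Egr1 region (18:35020402-35020812) was the only member with 2 summits in each library. The lower summit, at 35020402 to 35020511, scored from 6.67 in WT 2 to 12.3 in Mbd1 KO 1. The upper one, at 35020758 to 35020812, scored 9.09 in WT 1, 18.9 in WT 2, 17.2 in Mbd1 KO 1 and 14.4 in Mbd1 KO 2. The upper summit was higher in 3 libraries and tied in WT 1. The table lists Etf1, Kdm3b and Reep2 within 50 kb.

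Npas4 encodes a transcription factor that in neurons is induced selectively by calcium entry and shapes inhibitory synapses. No region at its gene span was called in all 4 libraries. At 19:4990083-4990142, 83 bp beyond the 5′ end of the span, a weak region was called in 3 libraries, with scores of 10.3 in WT 1, 8.44 in Mbd1 KO 1 and 4.85 in Mbd1 KO 2, and was not called in WT 2. The nearest region of all 4 libraries was 2020 bp beyond the other end (19:4981948-4981980), with scores from 7.27 to 15.1.

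The strongest region of the Npas4 window was 11910 bp above the span (19:5001910-5001930), with scores of 50.9 and 33.2 in WT 1 and WT 2 and 52.7 and 42.1 in Mbd1 KO 1 and Mbd1 KO 2. A neighbour 372 bp away (19:5002302-5002329) scored 39.3, 34.1 and 27.3 in WT 1, WT 2 and Mbd1 KO 2 and had no call in Mbd1 KO 1. Another strong region (19:4962052-4962060) scored 28.5 and 33.2 in the WT libraries and 41.9 and 45.9 in the Mbd1 KO libraries, without overlap. The table lists B4gat1, Brms1, Mrpl11, Peli3, Rin1 and Slc29a2 within 50 kb of Npas4. This window was the least even, with 4 of 11 regions in all 4 libraries, and summit numbers of 11 in WT 1 and 6 in WT 2.

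Nr4a1 encodes an orphan nuclear receptor induced by activity. The single region in its span (15:101097138-101097164) was weak. It scored 7.88 in WT 1, 5.55 in WT 2, 11.6 in Mbd1 KO 1 and 9.25 in Mbd1 KO 2, and its highest percentile was 27.2. Both Mbd1 KO scores were higher than both WT scores, while the percentiles of the groups overlapped. The strongest region of the window lay 8117 bp below the 5′ end of the span (15:101076859-101076883), with scores of 53.9, 42.5, 56.8 and 37.6 in the order WT 1, WT 2, Mbd1 KO 1 and Mbd1 KO 2. A region in both WT libraries only (15:101054557-101054572) scored 6.72 and 9.70. The table lists Acvr1b, Atg101, Grasp and Smim41 within 50 kb.

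Arc encodes a protein that governs the removal of AMPA receptors from synapses and whose RNA is carried into dendrites. Its window was the emptiest, with 5 regions, 2 of them in all 4 libraries. Of 24786 stretches of the same length, 28.4% held at least as many shared regions. The region 110 bp beyond the upper end of the gene span (15:74503110-74503136) scored 24.3 in WT 1, 23.7 in WT 2, 21.0 in Mbd1 KO 1 and 17.9 in Mbd1 KO 2. Both Mbd1 KO values were below both WT values, and the mean percentile was lower by 18.4 points, with 59.8 and 47.7 against 72.2 and 72.1. The stronger region near the edge of the window (15:74551491-74551521) scored 53.9 and 26.2 in the WT libraries and 51.7 and 34.0 in the Mbd1 KO libraries and did not part the groups. A weak region 4455 bp below the span (15:74494521-74494545) was called in both WT libraries, with scores of 7.29 and 6.10, and in neither Mbd1 KO library. Jrk, Mroh4, Psca and Them6 are listed within 50 kb.

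Bdnf encodes brain-derived neurotrophic factor and is transcribed from several alternative promoters, some of them driven by activity. In its gene span of 52.0 kb, 3 of 6 regions were called in all 4 libraries. From the 5′ end they lay at 2:109518426-109518468, 2:109532530-109532614 and 2:109551372-109551459. In the order WT 1, WT 2, Mbd1 KO 1 and Mbd1 KO 2, the first scored 8.73, 13.5, 13.6 and 12.4. The second scored 15.1, 10.1, 13.7 and 16.0, and the third 20.6, 11.8, 18.6 and 18.0. None parted the titled groups, and the highest percentile of the 3 was 65.0.

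Outside the gene the strongest Bdnf region was 29081 bp above the span (2:109596081-109596111), with scores of 20.5 in WT 1 and 38.5, 38 and 38.5 in WT 2, Mbd1 KO 1 and Mbd1 KO 2. WT 1 stood below the other 3 libraries there. A weak region 799 bp further on (2:109596910) was called in both Mbd1 KO libraries only, with scores of 6.61 and 5.69. For Bdnf, as for Fos, the table lists no other protein-coding gene within 50 kb.

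**Figure D2:**
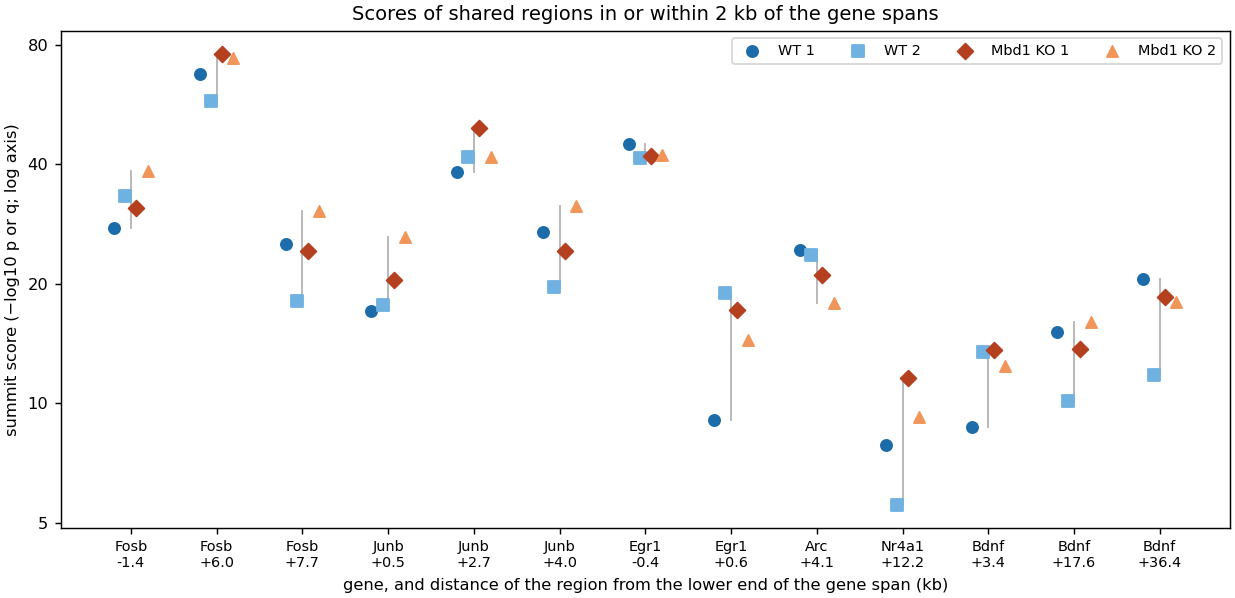
Summit scores (log axis) of the 13 regions of all 4 libraries in or within 2 kb of a gene span, with 1 point per library and a line from the lowest to the highest; labels give the gene and the distance in kb from the lower end of the span. The Fosb region at 57.6 to 75.9 is the highest and the Nr4a1 region at 5.55 to 11.6 the lowest, and the Egr1 region at 41.6 to 45.0 has the shortest line.

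Per 100 kb the number of shared regions was 7.77 for Junb, 7.41 for Fosb, 5.83 for Nr4a1, 5.71 for Fos, 3.77 for Npas4, 3.29 for Bdnf, 2.86 for Egr1 and 1.92 for Arc. Stretches of the same length across the series, which were not chosen around genes, held a median of 1 shared region. As many shared regions as in the window were held by 0.256% of stretches for Junb, 0.268% for Fosb, 0.717% for Nr4a1, 6.19% for Npas4, 6.55% for Bdnf and 13.4% for Egr1. Junb and Fosb also had the most neighbouring genes in the table, 8 and 7, whose part in the counts was not tested.

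By title, the windows held as many summits in the Mbd1 KO libraries as in the WT libraries within the spread of the libraries. There were 67 in WT 1, 56 in WT 2, 59 in Mbd1 KO 1 and 62 in Mbd1 KO 2, so both Mbd1 KO values lay between the WT values. The means were 60.5 ± 2.12 and 61.5 ± 7.78 (SD, n = 2 each), a ratio of 0.984 (two-sided exact permutation p = 1; 2 libraries against 2 cannot go below 0.333). Grouped by the genotype field, the ratio was 1.07 (exact permutation p = 0.667). For the summits scoring 10 or higher the numbers were 44 and 38 in WT against 45 and 48 in Mbd1 KO, a ratio of 1.13 (exact permutation p = 0.333), without overlap. As a share of all summits scoring 10 or higher, however, the titled groups differed by only −0.00052 percentage points (Mbd1 KO minus WT). By the genotype field the numbers scoring 10 or higher overlapped, with a ratio of 1.03 (exact permutation p = 1).

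The library titled WT 1 had the shortest list and the most summits in these windows. They made up 0.176% of its list, beside 0.120% in WT 2, 0.105% in Mbd1 KO 1 and 0.125% in Mbd1 KO 2. The density of its summits in the windows was 5.02 times that of its whole list, beside 2.99 to 3.56 times in the other libraries. The share differed by −0.0331 percentage points between the titled groups (0.115 ± 0.0143% in Mbd1 KO and 0.148 ± 0.0393% in WT, SD, n = 2 each, exact permutation p = 0.667), and by −0.00531 without WT 1. Grouped by the genotype field, the difference was 0.0177 (exact permutation p = 1). Its list also had the highest median score, 11.6 beside 8.44 to 10.5, and with the 38142 strongest summits of each list the shares of the others were 0.144% to 0.152%. WT 1 alone called 7 of the 81 regions (8.64%), beside 4.21% of all regions. For the other libraries the order was the opposite: WT 2 alone called 4 (10.1% of all regions), Mbd1 KO 1 alone 3 (18.6%) and Mbd1 KO 2 alone 4 (11.2%).

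**Figure D3:**
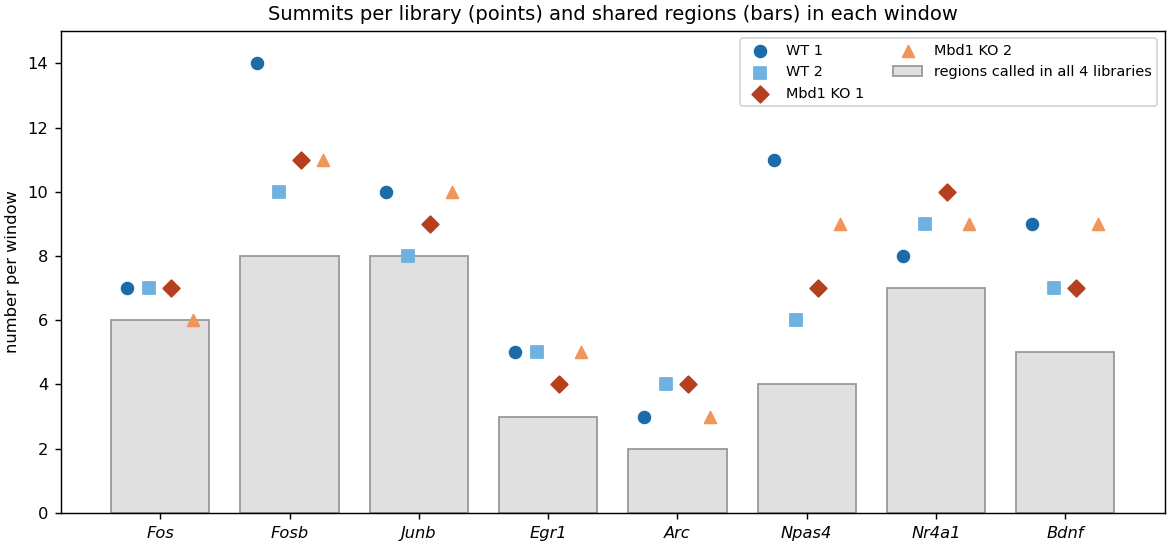
Summits in each window per library (points) and regions called in all 4 libraries (bars, from 0); the y axis is a number per window. WT 1 is the highest point at Fosb with 14 and at Npas4 with 11, while at Fos, Egr1 and Arc the 4 libraries lie within 1 of each other.

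No single window parted the titled groups in summit number. The largest differences in the mean were at Nr4a1, with 8 and 9 in the WT libraries and 10 and 9 in the Mbd1 KO libraries, and at Fosb, with 14 and 10 against 11 and 11. The exact permutation p was 0.667 for Nr4a1 and 1 for the other 7 windows, and 1 for all 8 after Benjamini-Hochberg adjustment.

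Regions called in a single titled pair were few. The 2 shared by the Mbd1 KO libraries alone (2.47% of the 81, beside 4.07% of all regions) were those at Junb and Bdnf. The 2 shared by the WT libraries alone (2.47%, beside 0.975%) were those at Nr4a1 and Arc. Their scores ran from 5.69 to 17.9. With the genotype field, 2 regions were called in both Mbd1 KO libraries only (beside 1.67% of all regions), at 7:19928198-19928209 in the Fosb window and 19:5024025-5024049 in the Npas4 window. None was called in both WT libraries only (beside 2.63%).

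The strength of the shared regions also overlapped between the titled groups. The median rank percentile of the 43 regions was 65.0 in WT 1, 58.2 in WT 2, 66.9 in Mbd1 KO 1 and 54.4 in Mbd1 KO 2. The means were 60.7 ± 8.79 for Mbd1 KO and 61.6 ± 4.79 for WT (SD, n = 2 each, exact permutation p = 1). Taken region by region, the difference of the group means had the other sign, with a median of 0.902 points. In 29 of the 43 regions the mean was higher in Mbd1 KO. The same share over all shared regions was not computed, so this count has no baseline. By the genotype field the means of the library medians were 65.9 ± 1.34 for Mbd1 KO and 56.3 ± 2.66 for WT. These differed by 9.61 points without overlap (exact permutation p = 0.333, the smallest this design allows). This grouping parts the libraries as the replicate numbers do, and the genotype and the number cannot be told apart there.

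For 9 of the 43 shared regions (20.9%, beside 16.2% of all shared regions) both Mbd1 KO percentiles were above both WT percentiles. For 4 (9.30%, beside 16.1%) they were below, and for the remaining 30 the groups overlapped. Of the 9, 4 lay in the Fosb window, 2 in the Fos window and 1 each in the windows of Junb, Npas4 and Bdnf. The largest gap was 6656 bp below the Fosb span (7:19881312-19881344), with scores of 15.8 and 11 in the WT libraries and 25.9 and 26.4 in the Mbd1 KO libraries. The 4 lower ones were 1 each in the windows of Fos, Junb, Egr1 and Arc. Single regions were not tested, since 2 libraries against 2 give no p below 0.333.

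Most of the regions that parted the groups lay away from the genes. So did most of the 43 shared regions, of which 13 lay in or within 2 kb of a gene span. In the Fos window, 12:86777178-86777234, 37766 bp below the span, scored 32.0 and 19.7 in the WT libraries and 41.9 and 36.7 in the Mbd1 KO libraries. At 12:86849385-86849426, 29385 bp above it, the scores were 12.3 and 11 against 18.7 and 15.8. The higher Bdnf region, 42134 bp above the span (2:109609134-109609184), scored 10.9 and 8.56 against 12.9 and 15.2. In each the groups were parted, and at the first the percentiles of WT 1 and WT 2 were themselves apart, at 81.9 and 62.9.

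At 2 of the 4 lower regions a single library stood apart, while the Egr1 and Arc regions described above were even within WT. The Egr1 scores overlapped between the groups, and of the 4 only the Arc region was parted by score as well as by percentile. At 8:87550717-87550738, 47717 bp above Junb, WT 1 scored 21.9, and WT 2, Mbd1 KO 1 and Mbd1 KO 2 scored 13, 13.6 and 13.1. WT 1 stood apart by score there, and the groups were parted by percentile and not by score. At 12:86809070-86809110, the region nearest the 5′ end of Fos, the scores were 9.09 and 10.3 in the WT libraries and 5.08 and 10.5 in the Mbd1 KO libraries, so that the scores overlapped as well.

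The 9 regions at or above the percentile of 80 in every library comprised 3 in the Junb window, 2 in the Fosb window, and 1 in each of the windows of Fos, Egr1, Npas4 and Nr4a1. Of these, the Fosb region in the span, the Junb region at the 5′ end and the Egr1 region lay in or within 2 kb of the gene. Among the others, 7:19905509-19905519, 9509 bp before the 5′ end of the Fosb span, scored 51.9, 31.4, 39.1 and 52.6 in the order WT 1, WT 2, Mbd1 KO 1 and Mbd1 KO 2. At 8:87549452-87549465, 46452 bp above Junb, the scores were 45.0, 54.5, 61.9 and 60.6 in the same order. Neither Arc nor Bdnf had such a region.

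Within a shared region the summits of the 4 libraries fell close together. The stretch from the first to the last position had a median of 31 bp over the 43 regions, beside 41 bp over all shared regions, and the longest was the 411 bp of the Egr1 region with 2 summits.

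**Figure D4:**
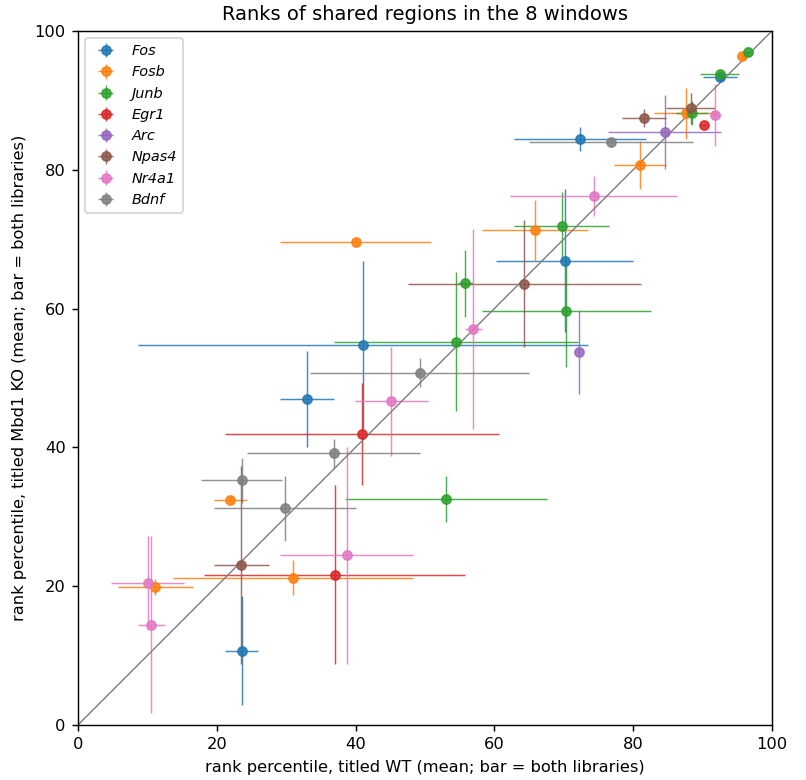
Rank percentile of the 43 shared regions, mean of the titled WT libraries (x axis) against mean of the titled Mbd1 KO libraries (y axis), with bars reaching both libraries and colours for the windows. Regions above 90 lie close to the diagonal, the middle of the range has long bars, and the Fosb region with a gap of 29.6 points lies farthest above the diagonal.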

How the data were processed

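FAIRE-seq summit lists of 4 dentate gyrus libraries were read as deposited. Per the submitters' processing notes, Bowtie, SAMtools and MACS2 were used on build mm9. Versions, thresholds and filters were not given in the sources used here. Scores in the deposited lists were taken as −log10 of a p or q value (which is not stated), since every value exceeds 1.30, that of 0.05. Each library has its own list, so peaks were not pooled. Depth is unknown, so no counting interval was computed.

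Summits within 250 bp were joined across libraries over the whole genome, and a region counted as called where a library had a summit in it; where it had more, the highest score was used. Positions are 1-based in mm9. The GRCm38 tables served only for gene names, neighbours, strand and promoter sequences.

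Groups were taken from titles and compared with exact two-sided permutation tests. Named regions were those of all 4 libraries at a gene span, the strongest of each window by lowest percentile, and those of 1 titled pair; others shown were chosen after their values were seen. The members, lists and tests were chosen with earlier results of these data known. Joining and tests were checked on simulated lists. Alternatives were the genotype field, joining distances of 100 and 1000 bp, a score of at least 10, equal list lengths, narrower windows, leaving out each library, and a replicate block. Python 3.11.15, numpy 2.4.6 and pandas 2.3.3 were used.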

Additional observations from a re-analysis of the deposited data

How the results depend on the processing

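The count of regions called in all 4 libraries, 43, stayed within 1.5 times under the settings that kept the windows (30 at a score of at least 10, 41 at equal list length, 43 at joining distances of 100 and 1000 bp, 45 to 48 without 1 library) and fell to 13 and 28 in gene spans with 2 and 20 kb on each side, which hold fewer regions. The direction of the comparisons between titled groups was not stable. The ratio of summit numbers (0.984) was 1.07 with the genotype field, 1.13 at a score of at least 10, 1.03 in spans with 2 kb, and 0.903 (without WT 2) to 1.08 (without WT 1) with 1 library left out. The share of the lists (−0.0331) turned to 0.0177 with the genotype field and ran from −0.0609 (without WT 2) to −0.00531 (without WT 1); it was −0.00052 at a score of at least 10, −0.00736 in spans with 2 kb and −0.0105 at equal list length. The difference in median percentile (−0.932) was 9.61 with the genotype field, 0.0870 with joining at 1000 bp, 1.82 at a score of at least 10, 0.135 at equal list length and 0.5 in spans with 20 kb, and ran from −6.85 (without Mbd1 KO 1) to 4.79 (without Mbd1 KO 2); it was 1.5 without WT 1. The cause was not tested. Regions of the Mbd1 KO pair only (2) numbered 1 with joining at 1000 bp, at equal list length and in spans with 2 or 20 kb, and 4 (without WT 2) to 6 (without WT 1 or Mbd1 KO 1) with fewer libraries to meet. Those of the WT pair only (2) numbered 0 with the genotype field, at a score of at least 10 and in spans with 2 kb, 1 in spans with 20 kb, and 4 (without an Mbd1 KO library) to 9 (without WT 2). With a replicate block the ratio was 0.987 (0.881 and 1.11 in the pairs), the share −0.0331 and the percentile −0.932 (exact sign-flip permutation p = 1 for each; 2 pairs cannot go below 0.5). What a replicate number marks is not labelled, and deviations of same-numbered libraries correlated at 0.0656 over 26592 shared regions. No comparison of 2 libraries against 2 can pass 0.05, and the lists hold no depth to scale by.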
